A study of Rattus norvegicus with 43 samples.

Results

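The genes described here are 40 genes of glycolysis and of the response to low oxygen: the enzymes that take glucose to lactate, the carriers that move glucose and lactate across membranes, the regulators of the pathway, the oxygen sensors with their transcription factors, and target genes of those factors. Each gene was looked up on the array by its symbol, and of several probe sets the brightest on average was taken. Of the 40 genes, 39 have a probe set that the annotation gives to that gene alone, among 14218 genes so named on the array. Of these, 33 passed a filter that kept probe sets brighter on average than the median, 5 were dimmer (Hk2, Slc16a3, Pfkfb1, Car9 and Adm), and Gapdh is measured here by control probe sets. Pkm has no value, because its probe set is shared with another symbol.

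Transcripts were measured in the anterior pituitary of 43 male rats, the F2 offspring of COP (Copenhagen) females and ACI males, with 1 array per animal. Every animal carried a silastic tubing implant with 5 mg of diethylstilbestrol (DES), a synthetic estrogen, from 9 to 21 weeks of age, and was injected with BrdU at 50 mg/kg 4 hours before sacrifice. No animals without DES are in the series, so no value below is a response to it. The study took the 22 heaviest and 21 lightest pituitaries of the population, but the labels do not say which animal was which, so the arrays form 1 group and are named by the animal number in their titles.

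In most cells glucose enters through a facilitated carrier, is split in the cytosol to pyruvate, and ends as lactate or passes into the mitochondria. When oxygen is short, prolyl hydroxylases no longer mark the HIF alpha subunits for destruction. The stabilised factor binds a short element in the promoters of glycolytic and other genes and raises their transcription. HIF1A is controlled mainly at the level of the protein, so its transcript is not a readout of its activity. Estrogen-treated rat pituitaries enlarge mainly through growth of the lactotroph population and gain new blood vessels, which is the tissue setting of these genes here.

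Promoter sequence is shown for 4 genes whose levels ran with animal number, 2 upward (Hif1a, Pfkp) and 2 downward (P4ha2, Pdk1), so that the letters of the HIF element can be seen beside them. Each sequence is the 250 bases before the transcription start in the RefSeq annotation of rat assembly GRCr8, 5′ to 3′ on the gene's strand, and capitals mark the core letters ACGTG or GCGTG on either strand (CACGT or CACGC when read on the strand shown).
Hif1a, the oxygen-regulated HIF subunit, chr6:98359648-98359897, plus strand: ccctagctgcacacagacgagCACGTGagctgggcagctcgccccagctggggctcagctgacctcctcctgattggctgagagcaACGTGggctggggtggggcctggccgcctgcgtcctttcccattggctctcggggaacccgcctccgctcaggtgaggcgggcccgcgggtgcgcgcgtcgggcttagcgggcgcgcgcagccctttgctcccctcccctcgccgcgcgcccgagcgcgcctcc
Pfkp, the platelet-type phosphofructokinase, chr17:68639563-68639812, plus strand: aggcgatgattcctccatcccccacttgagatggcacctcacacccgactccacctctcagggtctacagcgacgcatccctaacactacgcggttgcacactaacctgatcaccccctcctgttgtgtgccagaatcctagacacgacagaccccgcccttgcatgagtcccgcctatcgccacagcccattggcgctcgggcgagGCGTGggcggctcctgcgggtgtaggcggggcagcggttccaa
P4ha2, a collagen prolyl 4-hydroxylase subunit, chr10:38743644-38743893, plus strand: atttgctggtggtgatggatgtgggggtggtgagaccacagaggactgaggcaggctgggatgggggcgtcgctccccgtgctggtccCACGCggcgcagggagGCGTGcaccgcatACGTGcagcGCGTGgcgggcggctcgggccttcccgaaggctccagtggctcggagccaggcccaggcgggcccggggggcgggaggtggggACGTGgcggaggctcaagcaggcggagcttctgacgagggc
Pdk1, a pyruvate dehydrogenase kinase, chr3:77113264-77113513, plus strand: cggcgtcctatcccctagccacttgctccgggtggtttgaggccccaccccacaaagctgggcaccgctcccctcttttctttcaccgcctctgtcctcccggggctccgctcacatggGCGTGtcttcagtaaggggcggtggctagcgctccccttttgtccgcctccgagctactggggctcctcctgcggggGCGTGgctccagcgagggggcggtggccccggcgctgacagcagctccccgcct

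The Hif1a sequence holds 3 matches, of which 2 are the overlapping strands of CACGTG, P4ha2 holds 5, Pdk1 holds 2 and Pfkp holds 1. Over windows of 300 bases (250 before to 50 after the start), promoters were found for 36 of the 40 genes, and 24 of them (66.7%) held at least 1 match, against 41.6% of all 33469 promoters in the table. The members were counted with 1 promoter per gene. The background takes every promoter in the table, whether or not its gene is on the array or passed the filter, and was not matched for base composition. These shares are therefore not a test of enrichment. A match was present in 5 of the 7 promoters of members that rose with animal number and in 3 of the 4 of members that fell, so the letters did not separate these directions. A match to 5 letters is a description of sequence and not a binding site.

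The values are intensities that the authors had scaled alike on every array, given here as log2 of the intensity plus 16. Animal 43 stood apart from the others: its array had a mean correlation of 0.927 with the rest against 0.967 to 0.976 for the other animals, and the 3′ probe set of its actin control exceeded the 5′ one by 1.97 on the log2 scale, against 1.26 to 1.67. Its GAPDH control went the same way (0.45, against 0.05 to 0.29), but its hexokinase control went the other way, with the lowest difference of all (0.0038, against 0.36 to 1.47). That control was dim in animal 43, with the 3′ and the 5′ probe set both at 6.83, under the filter's 7.16. Its 3′ level was the lowest of all animals, whose median was 8.25, so this small difference is a weak guide to RNA quality. A 3′ excess is often read as a sign of RNA degradation, and here the 3 controls did not give the same order. Animal 38 had the lowest score of cell division genes. Of the tissue's defining markers, 4 of 5 for lactotrophs, 4 of the 4 measured for somatotrophs and 5 of 5 for gonadotrophs passed the filter, while 1 of 3 measured for corticotrophs and melanotrophs did. In whole tissue a lower level can mean fewer cells of a type or less RNA per cell, and these cannot be told apart.

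The carriers came first in the pathway. Slc2a1, the basal glucose transporter GLUT1, had levels of 9.45 at the lowest, 10.08 at the median and 10.47 at the highest animal, and Slc2a3, the high-affinity transporter GLUT3, of 7.60, 8.02 and 8.54. Slc16a1, the monocarboxylate transporter MCT1, ran from 9.42 in animal 38 through 9.97 to 10.30 in animal 7. Slc16a3, the lactate exporter MCT4, was below the filter at a median of 6.24. None of the 3 carriers tested rose or fell with animal number, as described below.

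Of the enzymes from hexokinase to triose phosphate isomerase, Hk1, the hexokinase of brain and many other tissues, had a median of 9.96 (9.32 to 10.30), while Hk2, the inducible hexokinase of muscle, lay below the filter at a median of 6.37. The 3 phosphofructokinases, which catalyse the committed step, differed in how much they varied. Pfkm, the muscle type, varied least of all 33 members, from 11.20 to 11.60 with an SD of 0.107. Pfkl, the liver type, had levels of 9.53, 10.47 and 10.84 (lowest, median, highest), and Pfkp had 9.07, 9.65 and 10.15. Pfkl was highest in animals 7, 8, 10, 11 and 13 and lowest in 18, 37, 38, 39 and 43. Pfkp was highest in 25, 28, 32, 36 and 37 and lowest in 4, 7, 16, 17 and 20. Gpi, glucose-6-phosphate isomerase, had a median of 12.22, Aldoa, the widely expressed aldolase, 13.76, Aldoc, the aldolase of brain, 9.61, and Tpi1, triose phosphate isomerase, 13.07. Tpi1 reached its highest level, 13.74, in animal 43 and 13.37 in the next highest.

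Of the enzymes from triose phosphate to lactate, the 3′ control probe set of Gapdh, glyceraldehyde-3-phosphate dehydrogenase, spread little (14.13 to 14.49, SD 0.088). Pgk1, phosphoglycerate kinase, ran from 13.02 in animal 14 through a median of 13.41 to 13.83 in animal 36. The 5 lowest Pgk1 values were in animals 9, 12, 13, 14 and 20 and the 5 highest in 28, 34, 36, 39 and 42. Pgam1, phosphoglycerate mutase, had a median of 13.87, Eno1, the ubiquitous enolase, of 12.29, and Eno2, the enolase of neurons and endocrine cells, of 12.08. Ldha, which favours lactate formation, had levels of 12.63, 12.86 and 13.25. Ldhb, the lactate dehydrogenase of oxidative tissues, spread more widely, from 8.80 through 9.44 to 9.84, and its 5 lowest animals were 1, 2, 3, 4 and 11.

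Among the switches, Pdk1, which turns off pyruvate dehydrogenase, ran from 9.76 through 10.20 to 10.64. The bifunctional enzymes Pfkfb2, Pfkfb3 and Pfkfb4, which set the level of the phosphofructokinase activator fructose-2,6-bisphosphate, had medians of 7.96, 9.28 and 7.69. Pfkfb4 was lowest in animals 28, 32, 37, 38 and 42 and highest in 2, 7, 10, 11 and 13. Among the genes of oxygen sensing and its transcription factors, Hif1a ran from 12.73 in animal 7 through 13.15 to 13.71 in animal 43. Its 5 highest values were in animals 33, 40, 41, 42 and 43. Epas1, which encodes HIF2A, had levels of 8.83, 9.52 and 10.07. The prolyl hydroxylases Egln1 and Egln3 had medians of 10.04 and 7.86, and Egln3, itself a HIF target, had the largest SD of the 33 members (0.318).

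Of the response genes, Bnip3 and Bnip3l, which mark mitochondria for removal, had medians of 12.22 and 11.88. Bnip3 reached 13.26 in animal 43, and the next highest animal had 12.51. Higd1a, a mitochondrial protein induced by hypoxia, likewise reached 12.21 in animal 43 and 11.41 elsewhere at most. P4ha2 had 9.91 in animal 43, 10.37 in the next lowest, a median of 10.97 and 11.43 at the highest, in animal 7, and P4ha1, the sister subunit, had a narrow range of 12.68 to 13.18. Ndrg1, a stress-responsive gene, ran from 8.41 through 8.81 to 9.30, Ddit4, an inhibitor of mTOR signalling, from 8.82 through 9.60 to 9.85, and Ankrd37, a HIF target of unsettled role, from 10.39 through 10.68 to 11.05. Car9, the tumour-associated carbonic anhydrase, and Adm, the vasodilator peptide adrenomedullin, were below the filter with medians of 7.17 and 6.28.

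As a set the members varied about as much as other genes. Their median SD over the 43 animals was 0.218 on the log2 scale, against 0.233 for all 15521 probe sets that passed the filter, and the median ratio of highest to lowest was 1.97-fold against 2.15-fold. Set beside the 200 probe sets nearest in brightness, Pfkp and P4ha2 lay at the 90.5th percentile of SD and Pfkm at the 8.5th, and 19 of the 33 lay above the median. Animal 43 held the highest or the lowest value of 17 of the 33 (51.5%, against 41.8% of all probe sets): it was the lowest for 12 members, among them Gpi, Eno1, Eno2, Aldoa and Slc2a1, and the highest for 5, Tpi1, Ldha, Hif1a, Bnip3 and Higd1a.

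**Figure D1:**
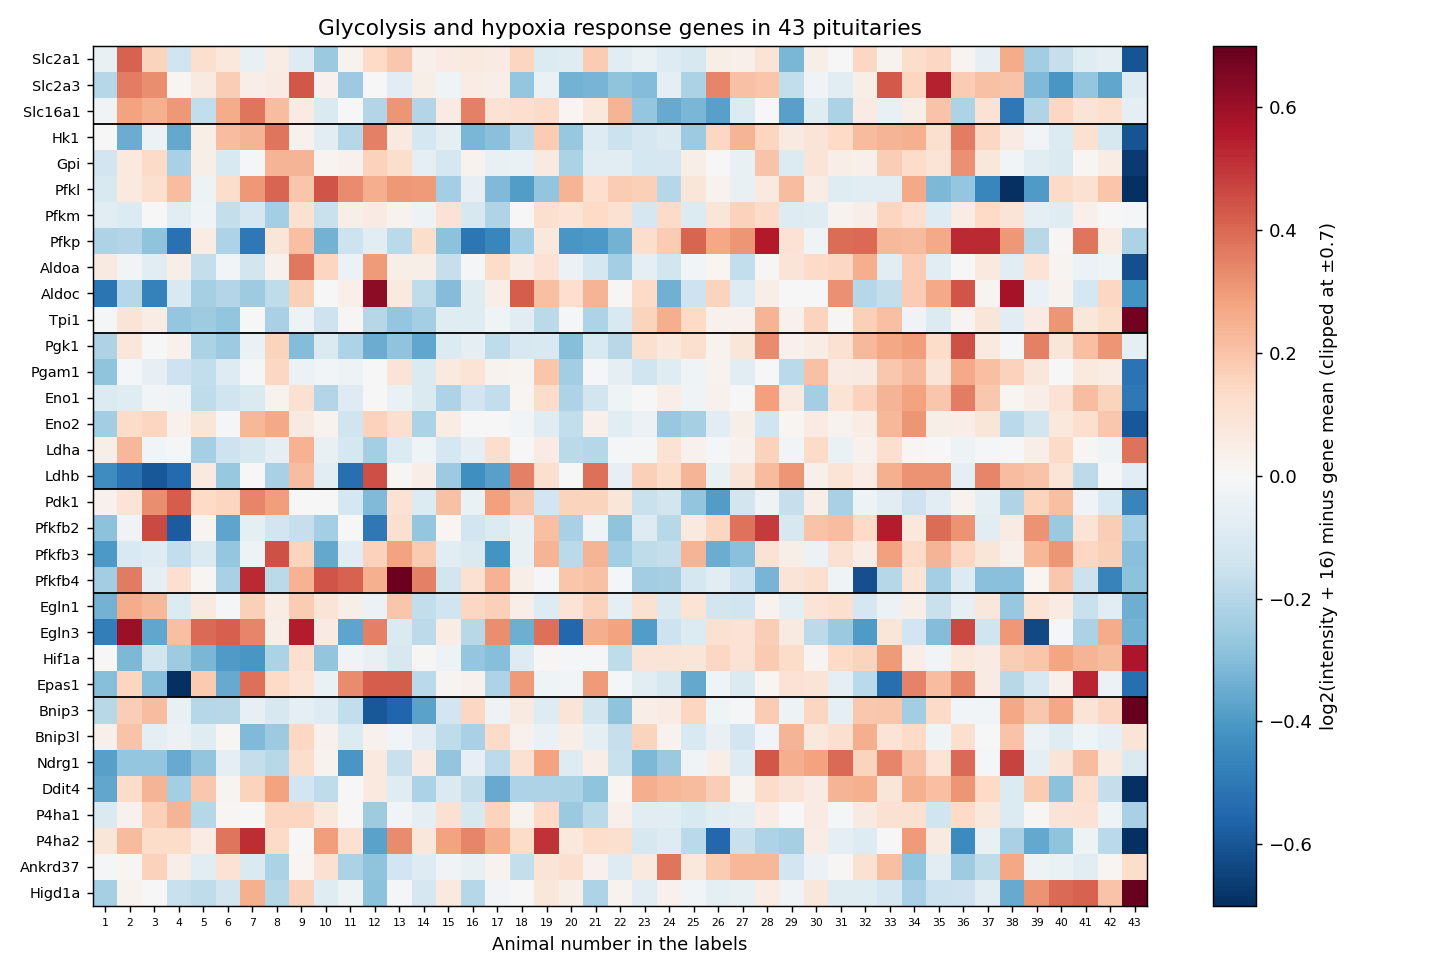
Log2(intensity + 16) of the 33 members that passed the filter, each minus its own mean over the 43 animals, with animals in order of their number on the x axis, genes by role on the y axis (lines divide the roles) and the colour scale clipped at 0.7 either way. Pgk1, Pfkp and Hif1a are bluer on the left and redder on the right, P4ha2 runs the other way, and the column of animal 43 holds an extreme for 17 genes.

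Levels were then fitted on animal number with limma, with p-values adjusted over all 15521 probe sets. The labels give the number no meaning beyond naming the animal. Each fit is a straight line, and the values did not all follow one. Pgk1 was 13.17 in animal 1, 13.19 in animal 22, 13.49 in animal 23 and 13.31 in animal 43. Pfkp was 9.38, 9.27, 9.72 and 9.38 in the same animals. The fitted changes below are those of the line and do not describe a steady course. Of the 33 members, 13 (39.4%) passed the threshold of adjusted p 0.05, where 26.6% of all probe sets did: 9 rose with the number (13.4% of all probe sets rose) and 4 fell (13.2% fell). Levels of Hif1a, Pgk1, Pfkp, Tpi1, Eno1, Ldhb, Pfkfb2, Bnip3 and Ndrg1 were higher, and those of Pfkl, Pdk1, Pfkfb4 and P4ha2 lower, in animals of higher number. Without animal 43 all 13 still passed, and 3 more did (Pgam1, Aldoc and Pfkfb3), where 23.7% of all probe sets passed. With array medians subtracted 7 rose and 5 fell, where 26.4% of all probe sets passed. Eno1 (adjusted p = 0.0847) and Pfkfb2 (adjusted p = 0.0555) then no longer passed, and Slc16a1 fell.

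In glycolysis proper, the enzymes after the aldolase step that passed all rose, and the phosphofructokinases differed in direction. The fitted change from animal 1 to animal 43 was 0.43 ± 0.09 (log2, SE, n = 43; limma adjusted p = 0.000224) for Pgk1, 0.36 ± 0.08 (adjusted p = 0.000919) for Tpi1 and 0.23 ± 0.08 (adjusted p = 0.0334) for Eno1, and a second Pgk1 probe set rose by 0.23 ± 0.08 (adjusted p = 0.0169). At the last step Ldhb rose by 0.47 ± 0.12 (adjusted p = 0.00335), whereas Ldha had a fitted change of 0.13 that did not pass (adjusted p = 0.143). Pfkp rose by 0.58 ± 0.13 (adjusted p = 0.00106) and Pfkl fell by 0.45 ± 0.13 (adjusted p = 0.00913). The Pfkl call was lost without animals 38 and 43 together, which hold its 2 lowest levels (-0.28, adjusted p = 0.0874). Pfkm had a change of 0.12 (adjusted p = 0.146). Of the others of these steps, Gpi (-0.05), Hk1 (0.08), Aldoa (-0.08), Aldoc (0.27), Pgam1 (0.13) and Eno2 (-0.08) did not pass, with adjusted p from 0.107 to 0.704. The carriers Slc2a1 (-0.17), Slc2a3 (-0.12) and Slc16a1 (-0.27) did not pass either.

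Of the 4 switches, Pdk1 fell by 0.32 ± 0.09 (log2, SE, n = 43; limma adjusted p = 0.00874), and a second Pdk1 probe set fell by 0.39 ± 0.09 (adjusted p = 0.000997). Pfkfb4 fell by 0.44 ± 0.12 (adjusted p = 0.00654) and Pfkfb2 rose by 0.35 ± 0.12 (adjusted p = 0.0277), so the probe sets used for these 2 isozymes went in opposite directions. The other probe sets of both genes were below the filter. The one used for Pfkfb2 correlated with them at -0.13, 0.20 and -0.18, and the one used for Pfkfb4 at 0.29. Pfkfb3 had a change of 0.23 (adjusted p = 0.106). Of the 4 genes of oxygen sensing and its transcription factors, Hif1a had the smallest adjusted p of all members, 2.65e-07, with a rise of 0.54 ± 0.07. Epas1, the gene of the other HIF alpha subunit measured, had a change of 0.02 (adjusted p = 0.946), and Egln1 and Egln3 had -0.16 and -0.26 (adjusted p = 0.107 and 0.219).

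Among the 8 response genes, Ndrg1 rose by 0.48 ± 0.10 (log2, SE, n = 43; limma adjusted p = 0.000286) and Bnip3 by 0.43 ± 0.11 (adjusted p = 0.00425), the latter 0.31 without animal 43 (adjusted p = 0.0169). P4ha2 fell by 0.57 ± 0.12 (adjusted p = 0.000366), and its second, dimmer probe set had -0.37 ± 0.21 (adjusted p = 0.195). P4ha1 (-0.03), Ddit4 (0.05), Ankrd37 (0.04) and Bnip3l (0.11) did not pass, although a second Bnip3l probe set did, at 0.22 (adjusted p = 0.0435). Higd1a lay at the threshold, with 0.31 and an adjusted p of 0.0501. Response genes thus rose, fell and stayed short of the threshold within the same list.

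**Figure D2:**
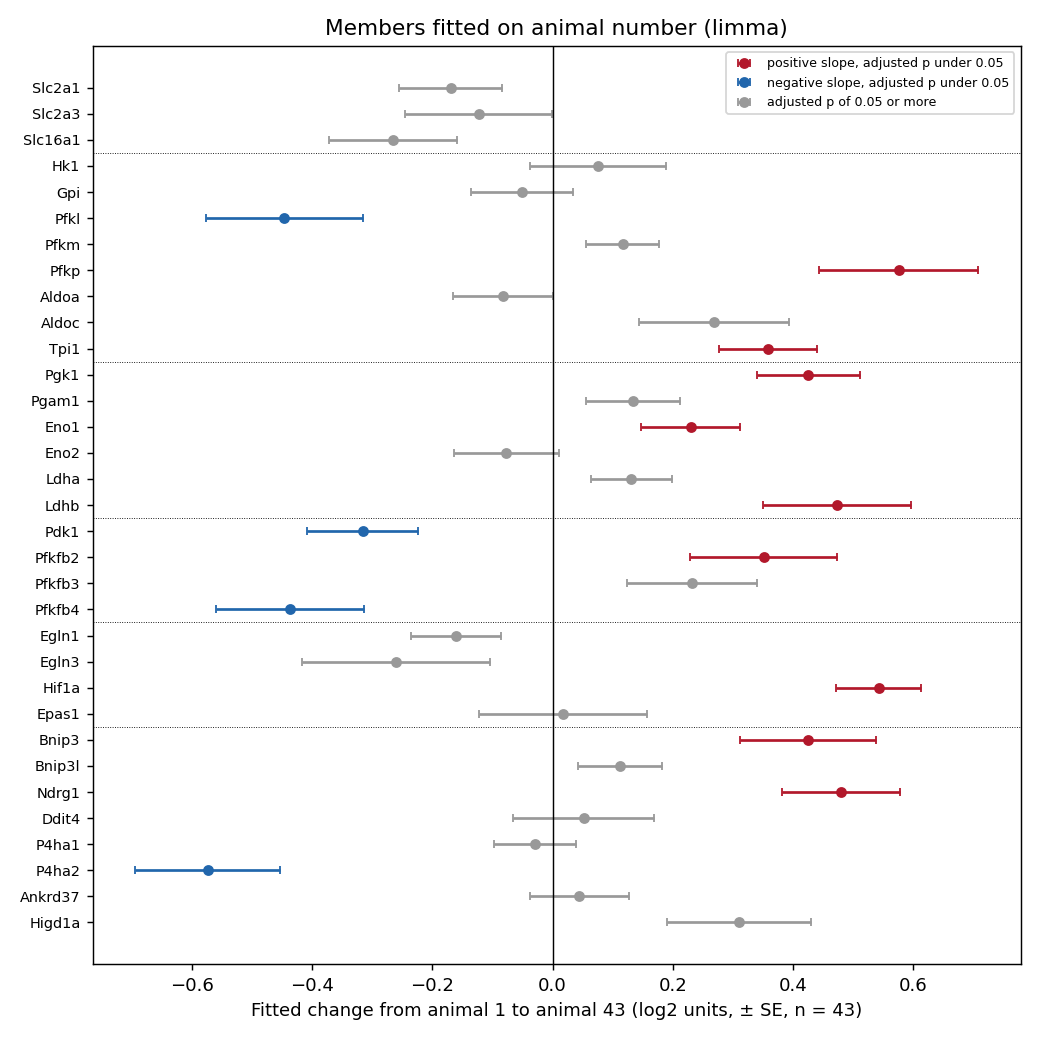
Fitted change of each of the 33 members from animal 1 to animal 43 (x axis, log2 units, bars ± SE, n = 43), by role from carriers at the top to response genes at the bottom, with colour for limma adjusted p under 0.05. The 9 red genes range from Eno1 at 0.23 to Pfkp at 0.58, and the 4 blue genes from Pdk1 at -0.32 to P4ha2 at -0.57.

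**Figure D3:**
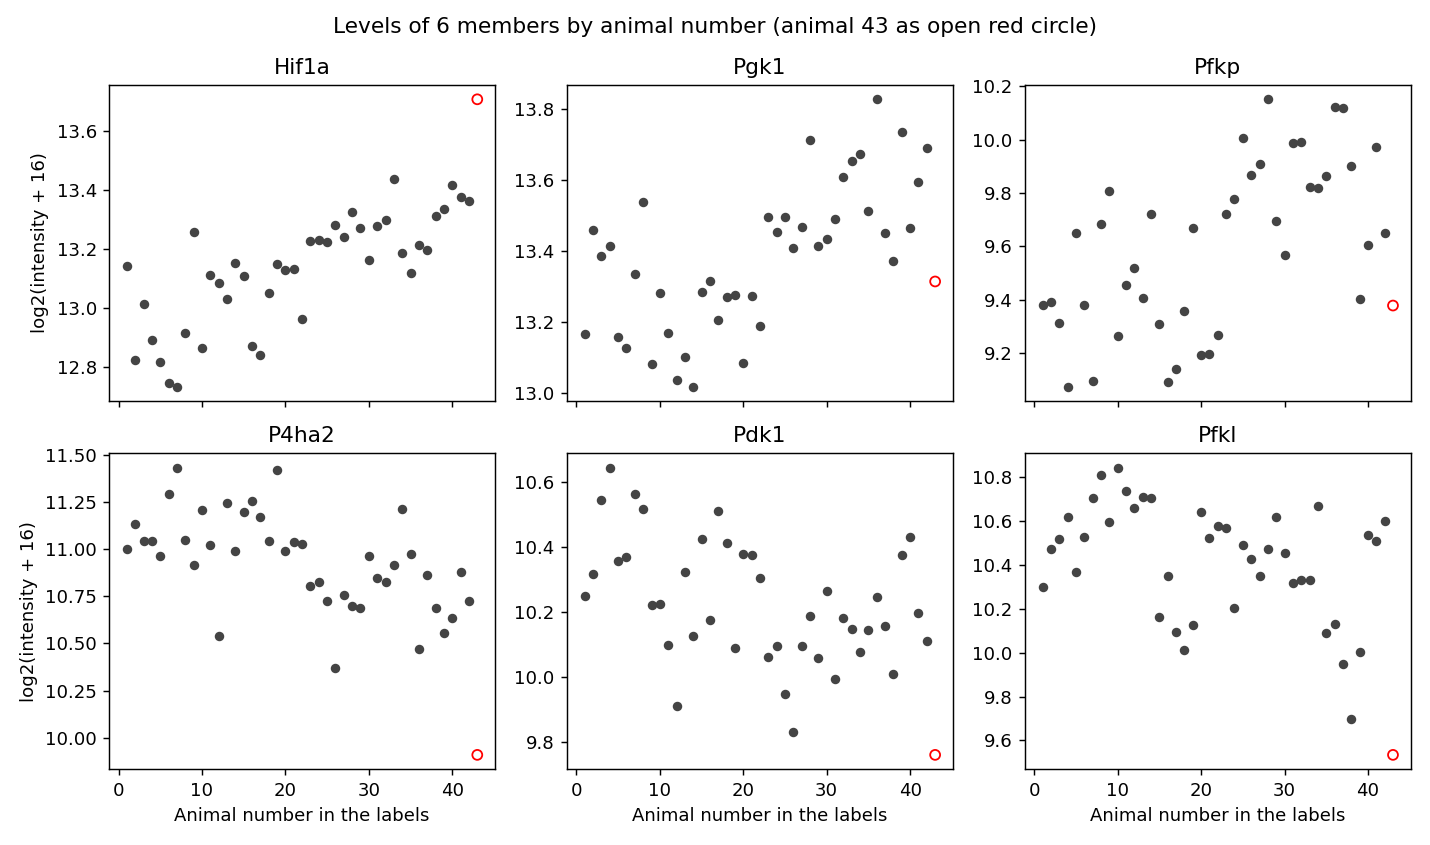
Log2(intensity + 16) of 6 members (y axis, a scale for each) against animal number (x axis), 1 point per animal, with animal 43 as an open red circle. Hif1a, Pgk1 and Pfkp lie higher at high numbers and P4ha2, Pdk1 and Pfkl lower, with overlap between low and high numbers. Animal 43 holds the highest Hif1a value (13.71) and the lowest P4ha2 value (9.91).

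Other measures moved with animal number as well, and markers of hormone-producing cells did not all go the same way: 5 of 5 gonadotroph markers rose (Cga by 0.99, Fshb by 1.69), 3 of 4 somatotroph markers rose (Gh1 by 1.04), and 1 of 2 thyrotroph markers rose (Tshb by 2.33). Pcsk2 fell by 0.91. It was the only corticotroph and melanotroph marker tested of 4 listed, so the direction of that lineage cannot be read from it. For lactotrophs, Agtr1b and Pou1f1 rose by 0.99 and 0.39, Drd2 fell by 0.48, and Prl itself did not pass. Also rising were 3 of 3 folliculostellate and stem cell markers, 2 of 3 erythroid and 4 of 7 endothelial ones, while 14 of 37 cell division genes fell and none rose. Counts are of the markers that passed the filter. These were 3 of 6 listed for folliculostellate and stem cells, 3 of 6 erythroid, 7 of 14 endothelial and 3 of 7 fibroblast and matrix. Macrophage and leukocyte markers were mixed (1 of 12 rose and 2 fell), as were fibroblast and matrix markers (1 of 3 rose and 1 fell), and neither of the 2 posterior lobe and neural markers passed. Across animals the mean scores ranged from -0.78 to 0.67 (log2, relative to the mean) for gonadotroph, -0.74 to 0.62 for somatotroph, -0.92 to 0.68 for folliculostellate, -2.46 to 1.47 for erythroid and -0.36 to 0.24 for endothelial markers. Their part in the members' slopes was not tested. The number's correlation with the actin 3′ to 5′ difference was r = 0.239 (adjusted p = 0.203 by permutation over 15 relations between predictors). Its rho was 0.132 (permutation adjusted p = 0.541), and r was 0.074 without the 2 most distant numbers. With that difference as a covariate all 13 members still passed.

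Pgk1, a glycolytic enzyme on which HIF1 is known to act, was next used as a yardstick, and the other 32 members were fitted on its level. With it 9 members passed, 28.1% of those tested, against 10.7% of all probe sets: 8 rose (6.06% of all probe sets rose) and 1 fell (4.67% fell). With array medians subtracted 7 rose and none fell, where 6.98% of all probe sets passed. Pgk1 itself rose with animal number (r = 0.623, rho = 0.615, permutation p = 1e-05 for both, the smallest that 100000 permutations can give, adjusted p = 0.00015 over 15 relations, and r = 0.648 without the 2 animals of the most distant numbers), so this fit and the previous one are not separate evidence. Per SD of Pgk1, Eno1 rose by 0.11 ± 0.02 (log2, SE, n = 43; limma adjusted p = 0.00164), Pfkp by 0.16 ± 0.04 (adjusted p = 0.00724), Tpi1 by 0.09 ± 0.03 (adjusted p = 0.0295) and Pgam1 by 0.07 ± 0.02 (adjusted p = 0.0455). These are 4 enzymes of the pathway on either side of the Pgk1 step. The hexokinase, aldolase and lactate dehydrogenase genes and the 3 carriers did not pass.

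Of the 4 switches, Pfkfb2 and Pfkfb4 passed on Pgk1, in opposite directions, and Pdk1 and Pfkfb3 did not pass. Pfkfb2 rose by 0.16 ± 0.03 per SD of Pgk1 (log2, SE, n = 43; limma adjusted p = 0.0018) and Pfkfb4 fell by 0.14 ± 0.04 (adjusted p = 0.00903). Of the sensing and response genes, Ddit4 rose by 0.11 ± 0.03 (adjusted p = 0.0134), Bnip3 by 0.11 ± 0.04 (adjusted p = 0.035) and Hif1a by 0.09 ± 0.03 (adjusted p = 0.0484). For 2 genes the result depended on the probe set. A second Pdk1 probe set fell by 0.09 ± 0.03 (adjusted p = 0.0357, against 0.751 for the one used). A second Higd1a probe set rose by 0.11 ± 0.04 (adjusted p = 0.0352, against 0.753 for the one used). A second Pgk1 probe set correlated with the one used at r = 0.81. With a smooth trend over animal number as a covariate none of the 32 passed, and 0.00644% of all probe sets did, Hif1a then having a slope of -0.17 per unit of Pgk1 (adjusted p = 0.741). Without animal 43 the 9 members passed again, and P4ha2 did too, where 15.8% of all probe sets passed. The calls nearest the threshold depended on the scaling and filter. Hif1a was lost with quantile normalization (adjusted p = 0.106), array medians subtracted (0.0728), no filter (0.103) and ranks of Pgk1 (0.052). Bnip3 and Tpi1 were lost with quantile normalization (0.207 and 0.081) and with no filter (0.0774 and 0.067), Pgam1 with no filter (0.0986) and ranks (0.0604), and Pfkfb4 with medians subtracted (0.0501). Of the cell type markers, 4 of 5 gonadotroph, 3 of 4 somatotroph, 2 of 3 erythroid, 1 of 2 thyrotroph, 1 of 3 folliculostellate and 1 of 7 endothelial genes also rose with Pgk1. The corticotroph and melanotroph marker Pcsk2, 1 of 12 macrophage and 1 of 2 posterior lobe and neural markers fell, and no lactotroph, fibroblast or cell division gene passed.

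Between members, the correlations over the 43 animals are given as a description. The median over the 528 pairs was 0.105, against 0.008 over all pairs of probe sets that passed the filter, and 42 pairs (7.95%, against 2.23%) exceeded 0.5. Without animal 43 these were 34 pairs (6.44%, against 0.947%). The strongest pairs joined enzymes to enzymes and enzymes to response genes: Tpi1 with Bnip3 at 0.793 (0.682 without animal 43), Gpi with Pgam1 at 0.75 (0.623) and Pfkp with Eno1 at 0.694 (0.730). Tpi1 also ran with Hif1a at 0.699 and with Ldha at 0.697. Pgk1 with Eno1 stood at 0.633 (0.688), and Slc16a1 with Pdk1 at 0.626 (0.656).

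Pairs below -0.5 made up close to the background share: 11 of the 528 (2.08%), against 1.96% of all pairs of probe sets. Without animal 43 there were 9 (1.70%, against 0.778%). Those named here are given as values only. Hif1a correlated with P4ha2 at -0.748 (-0.679 without animal 43) and with Pdk1 at -0.610 (-0.539). P4ha2 and Pdk1 are known targets of HIF1, but the Hif1a transcript is not a readout of HIF1 activity. Hif1a rose and P4ha2 and Pdk1 fell with animal number, so these correlations are not separate from those slopes. Epas1 and Ankrd37 stood at -0.626 (-0.621), and Slc2a1 and Higd1a at -0.659 (-0.435). Gpi and Higd1a fell from -0.551 to -0.124 without animal 43, so that pair rests on this animal. Eno2 and Tpi1, neighbours on chromosome 4, stood at -0.367, or -0.074 without animal 43.

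Isozymes of the same reaction had a modest range. The highest was 0.431 for Eno1 with Eno2, which was 0.235 without animal 43, followed by Aldoa with Aldoc at 0.391, Slc2a1 with Slc2a3 at 0.389 and Pfkm with Pfkp at 0.385. Pfkl ran slightly against both sisters, at -0.180 with Pfkp and -0.200 with Pfkm. Ldha with Ldhb (-0.040), Hif1a with Epas1 (-0.166) and Egln1 with Egln3 (0.120) lay near 0. Probe sets of the same gene give a scale for these values: among pairs that both passed the filter r was 0.810 for Pgk1, 0.731 for Pfkm, 0.584 for Pdk1, 0.535 for Bnip3l and 0.438 for P4ha2, but -0.178 for Higd1a, so Higd1a values depend on the probe set.

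**Figure D4:**
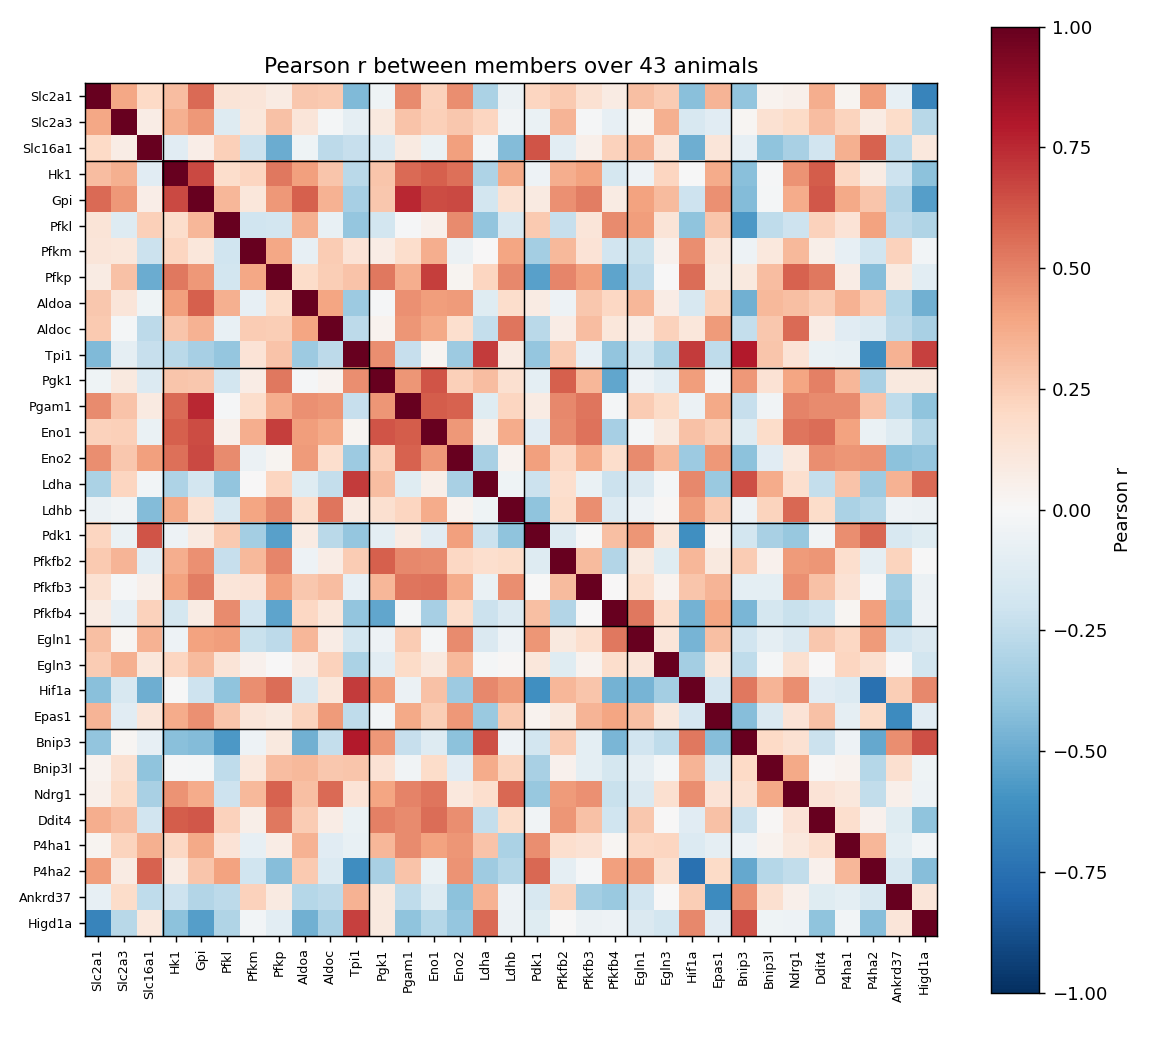
Pearson r between the levels of the 33 members over the 43 animals, with genes in the same order on both axes, lines dividing the roles and colour from -1 to 1. Tpi1, Ldha, Hif1a, Bnip3 and Higd1a, the 5 genes highest in animal 43, form red squares with each other, and the Hif1a and P4ha2 square is the deepest blue, at -0.748.

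Vegfa, the angiogenic growth factor and a well-known HIF target outside the list, had a share of members close to the background. With levels fitted on it, 3 of the 33 members passed (9.09%), against 9.54% of all probe sets, 2 rising (4.8% of all probe sets) and 1 falling (4.74%). Per SD of Vegfa, Gpi rose by 0.09 ± 0.02 (log2, SE, n = 43; limma adjusted p = 0.0143), Ddit4 rose by 0.11 ± 0.03 (adjusted p = 0.028) and Bnip3 fell by 0.11 ± 0.04 (adjusted p = 0.048). None of the 3 passed without animal 43 (adjusted p = 0.0642, 0.126 and 0.221), when 1.63% of all probe sets did. Neither Pgk1, Hif1a nor any carrier passed in this fit. Vegfa and Pgk1 had a correlation of r = 0.058 (permutation adjusted p = 0.763) and rho = 0.068 (permutation adjusted p = 0.829). Without the 2 animals of most distant Pgk1 level r was 0.088.

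With the values as scaled, the share of members that followed cell division was close to the background. On a score of 37 cell division genes, 2 of 33 members passed (6.06%), against 5.92% of all probe sets, 1 rising (3.21% of all probe sets) and 1 falling (2.71%). Pfkl rose by 0.19 ± 0.03 per SD of the score (log2, SE, n = 43; limma adjusted p = 0.000571), and did so without animals 38 and 43 as well (0.12 per SD, adjusted p = 0.0459). Ndrg1 fell by 0.11 ± 0.03 (adjusted p = 0.0366), a call lost without animal 38 (adjusted p = 0.164), whose score of -0.92 was the lowest, the next being -0.33. With array medians subtracted 7 members passed, where 7.76% of all probe sets did, 4 rising and 3 falling. These were Pdk1, Slc16a1 and Pfkfb4 beside Pfkl upward, and Ldhb and Pfkp beside Ndrg1 downward. With quantile normalization 3 members passed, where 5.28% of all probe sets did, 2 rising and 1 falling.

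On a score of 7 endothelial genes, 8 of 33 members passed (24.2%), against 7.94% of all probe sets, 5 rising (3.93% of all probe sets) and 3 falling (4%). The 7 genes are those of 14 listed that passed the filter. Per SD of the score, Pfkp rose by 0.20 ± 0.04 (log2, SE, n = 43; limma adjusted p = 0.00122), Ndrg1 by 0.14 ± 0.03 (adjusted p = 0.00313), Ldhb by 0.15 ± 0.04 (adjusted p = 0.00636), Hif1a by 0.11 ± 0.03 (adjusted p = 0.00702) and Tpi1 by 0.08 ± 0.03 (adjusted p = 0.0368). Pdk1 fell by 0.11 ± 0.03 (adjusted p = 0.00507), P4ha2 by 0.13 ± 0.04 (adjusted p = 0.0278) and Slc16a1 by 0.10 ± 0.03 (adjusted p = 0.037). All but Slc16a1 also passed in the fit on animal number, with the same sign. The endothelial score rose with that number (r = 0.587, rho = 0.593, permutation p = 5e-05 for r, adjusted p = 0.000375, and r = 0.555 without the 2 most distant numbers). With array medians subtracted the 5 that rose passed and the 3 that fell did not, where 4.38% of all probe sets passed. With a smooth trend over the number as a covariate none passed, of the members or of all probe sets. Without animal 43 Tpi1 and P4ha2 did not pass (adjusted p = 0.106 and 0.083), and without animal 38 Slc16a1 did not (adjusted p = 0.101). In this fit 4 of 5 gonadotroph, 3 of 4 somatotroph, 2 of 3 folliculostellate, 2 of 3 erythroid, 1 of 2 thyrotroph, 1 of 12 macrophage and 1 of 3 fibroblast markers rose too, and 7 of 37 cell division genes fell.

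The actin 3′ to 5′ difference ran with 13 of 33 members (39.4%), against 30.6% of all probe sets, 4 rising (11.2% of all probe sets) and 9 falling (19.3%). With quantile normalization 7 passed, 1 rising and 6 falling, where 10.9% of all probe sets passed. With array medians subtracted 11 did, 5 rising and 6 falling, where 26.5% of all probe sets did. The largest slopes per SD were a rise of 0.17 ± 0.03 for Higd1a (log2, SE, n = 43; limma adjusted p = 2.69e-05) and of 0.16 ± 0.03 for Bnip3 (adjusted p = 0.00015), and a fall of 0.15 ± 0.03 for Hk1 (adjusted p = 2.28e-05). Tpi1 rose by 0.11 ± 0.02 (adjusted p = 0.000357), Ldha by 0.06 ± 0.02 (adjusted p = 0.0216), and Gpi, Aldoa, Pgam1, Eno1, Eno2, Slc2a1, Slc2a3 and Ddit4 fell. Without animal 43, whose difference was the highest, 1 of the 33 passed, Hk1 (adjusted p = 0.0179), with 1.52% of all probe sets. Hif1a, Pgk1, Pfkp, Ldhb, Ndrg1, P4ha2 and Pdk1 did not pass in this fit with or without animal 43, though P4ha2 was near the threshold (limma adjusted p = 0.0547). Under other settings some of them did: Hif1a with array medians subtracted, Pfkp with quantile normalization, and P4ha2 with a stricter brightness filter.

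**Figure D5:**
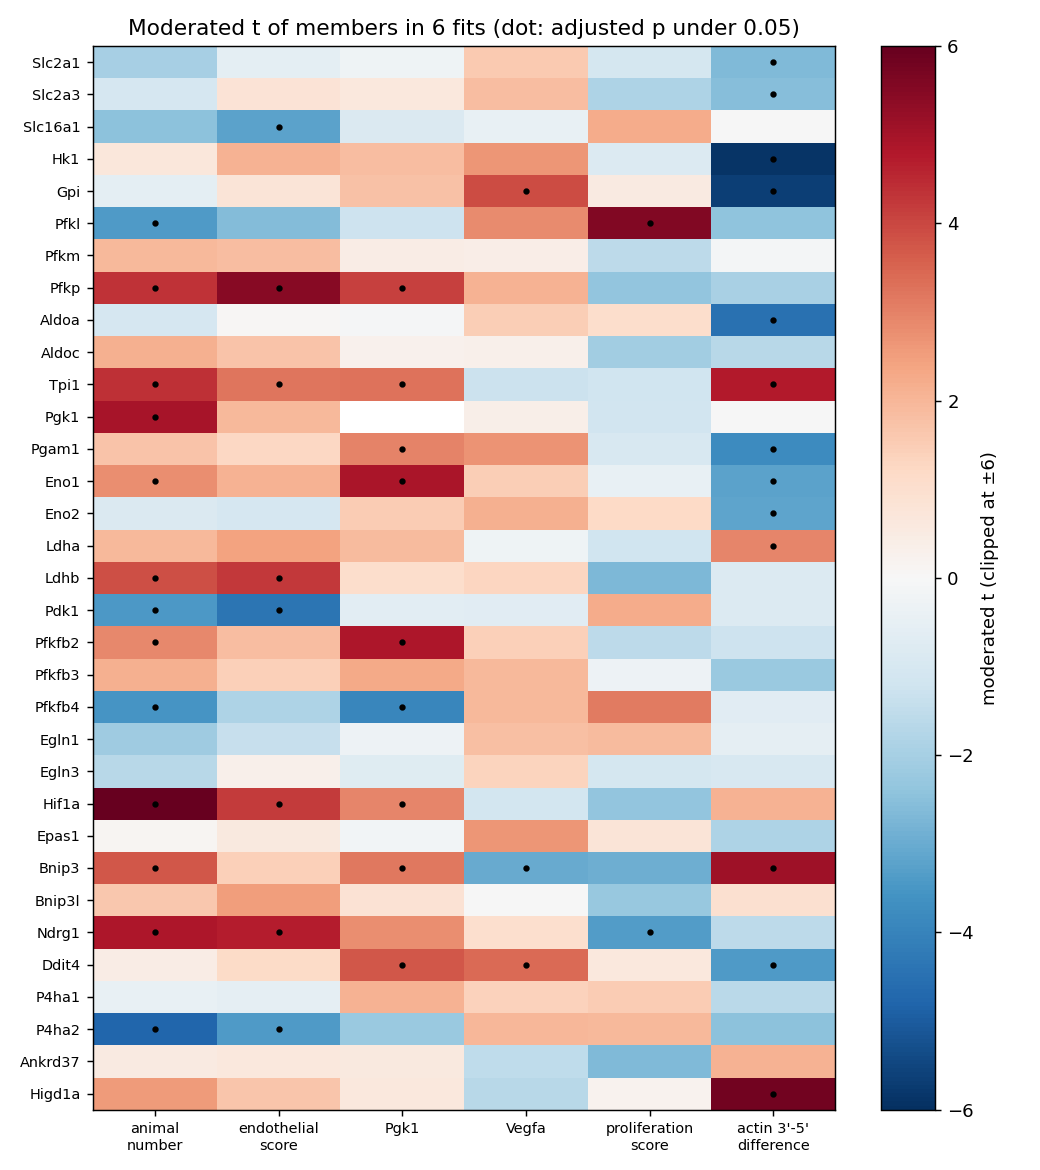
Moderated t of the 33 members (rows, by role) in the 6 limma fits (columns), clipped at 6 either way, with a dot where the adjusted p was under 0.05 and a blank where Pgk1 would be fitted on itself. Hif1a, Pfkp and Tpi1 carry dots in the columns of animal number, endothelial score and Pgk1, and the dots of the actin column (13) fall mostly on genes without dots there.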

How the data were processed

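For each of 43 rat arrays the authors deposited a table of intensity, the linear brightness of each probe set, which they had already scaled: with 2% of values trimmed at either end, array means were 500.17 to 500.22, and array medians were 122.6 to 141.45. The software behind these values was not given in the sources used here. Probe sets were named from the platform annotation, which gives 14218 genes a probe set of their own, and 436 of the 31099 probe sets several symbols. Values were kept as scaled, 16 was added and the log2 taken, which understates changes of dim probe sets. The 15521 non-control probe sets whose mean exceeded the median, 7.16 on this scale, were tested.

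All arrays form 1 group, so levels were fitted with limma 3.58.1 (lmFit and eBayes, R 4.3.3) on 6 continuous predictors, each its own fit: animal number, Pgk1, Vegfa, the mean centred log2 of cell division genes and of endothelial genes, and the 3′ minus 5′ actin control. Genes of a predictor were left out of its fit, and p-values were adjusted (Benjamini-Hochberg) over all probe sets of a fit, with a threshold of 0.05. A p-value treats the 43 animals as independent, and whether neighbouring numbers share a litter or day is not given. Relations between predictors were tested by 2-sided permutation (100000 permutations, 15 relations). The number of arrays limits the precision. The fits were tested on simulated data with independent noise for each probe set and a random predictor. That checks the calculation and not the p-values of these animals.

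The members, lists and tests were chosen with earlier results of these data known. Every member measured is named. Of 81 other genes of the same pathways, up to 6 per fit with the smallest p are named, and of all other genes the 5 highest and 5 lowest moderated t in the fits on Pgk1 and Vegfa. Alternatives were other pseudocounts, scalings, filters, probe sets, covariates, ranks of the predictor and adjustment, and leaving out animals 38 and 43, singly and, as an addition after the data were seen, together. Promoters came from RefSeq (GRCr8).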

Additional observations from a re-analysis of the deposited data

How the results depend on the processing

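No paired analysis was possible because all arrays form 1 group. Counts are members with an adjusted p under 0.05. A percentage in brackets is the share of all probe sets that passed in the same setting. On animal number (13 members, 26.6%) every alternative gave 11 to 16 (12.5% to 34.3%), with Pfkl lost without animals 38 and 43 together. Pgk1 was lost when a gene's probe sets were averaged. Eno1 was lost with quantile normalization, medians subtracted, no filter and p adjusted over all 6 fits, and Pfkfb2 with medians subtracted and no filter. On Pgk1 (9, 10.7%) the count was 5 with no filter (3.34%). It was 0 (0%) when a gene's probe sets were averaged, which joins Pgk1 to a dim one. The count was also 0 with a smooth trend over animal number (0.00644%), when Hif1a turned to -0.17 (limma adjusted p = 0.741). It was 7 with quantile normalization (7.87%), medians subtracted (6.98%), ranks (10.4%) or the stricter filter (7 of 27, 15.1%). Without animal 43 (15.8%) or 38 (11.3%) it was 10. On Vegfa (3, 9.54%) it was 1 with quantile normalization (1.66%), array medians subtracted (7.7%) or no filter (1.63%), and 7 of 28 with a stricter brightness filter (21.2%). The Vegfa count was 0 with the smooth trend (0.00644%), the actin difference as covariate (0.412%), or without animals 38 and 43 together (1.49%). It was 0 without animal 43 (1.63%) and 3 without animal 38 (9.35%). On the cell division score (2, 5.92%) it was 7 with medians subtracted (7.76%) and 4 with p adjusted over all 6 fits (9.55%). The count was 1 with no filter (1.62%), the stricter filter (3.8%), averaging (6.02%), the smooth trend (0.956%) or without both animals (0.866%). Without animal 38 it was 1 (1.84%), and without animal 43 it was 2 (5.48%). On the endothelial score (8, 7.94%) it was 5 with medians subtracted (4.38%), 4 with no filter (1.94%) and 15 of 28 with the stricter filter (45.4%). The count was 0 with the smooth trend (0%), 7 without animal 38 (5.88%) and 8 without animal 43 (7.5%). On the actin difference (13, 30.6%) it was 7 with quantile normalization (10.9%), when Ldha turned to -0.037 (limma adjusted p = 0.908). The count was 2 with the smooth trend (3.87%), when Slc2a3 turned to 0.11 (limma adjusted p = 0.903). With ranks it was 2 (4.34%), without both animals 1 (1.51%), without animal 43 1 (1.52%) and without animal 38 14 (30.9%). The median r between members was 0.047 with averaging against 0.105. The causes were not tested. Pseudocounts of 1 and 64 lost 1 of the 48 calls, Slc2a3 on the actin difference.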

Other observations

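Other genes of the same pathways were followed in the same fits. Of 81 such genes 72 have a named probe set and 56 passed the filter. On animal number 11 rose and 11 fell of 56, where 13.4% of all probe sets rose and 13.2% fell. The hypoxia-induced glycoprotein hormone gene Stc2 fell by 1.11 ± 0.15 from animal 1 to animal 43 (log2, SE, n = 43; limma adjusted p = 3.01e-07), the collagen cross-linking enzyme gene Lox fell by 1.30 ± 0.22 (adjusted p = 1.33e-05) and the haem oxygenase gene Hmox1 fell by 2.29 ± 0.39 (adjusted p = 2.27e-05). The monocarboxylate transporter gene Slc16a7 fell by 0.40 ± 0.07 (adjusted p = 1.97e-05). The pentose phosphate epimerase gene Rpe rose by 0.62 ± 0.11 (adjusted p = 1.76e-05), and Vhl, whose product directs the destruction of HIF alpha subunits, rose by 0.44 ± 0.09 (adjusted p = 0.000187).

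On Pgk1 10 of the 56 rose and 4 fell, where 6.06% of all probe sets rose and 4.67% fell. The largest rise per SD of Pgk1 among those named was that of the mitochondrial adenylate kinase gene Ak4, 0.31 ± 0.07 (limma adjusted p = 0.0018), followed by Vhl at 0.13 ± 0.03 (adjusted p = 0.00226), Gbe1, the glycogen branching enzyme gene, at 0.12 ± 0.03 (adjusted p = 0.00957), Rpia at 0.10 ± 0.03 (adjusted p = 0.00629) and Mpc2, of the mitochondrial pyruvate carrier, at 0.10 ± 0.02 (adjusted p = 0.0099), while Lox fell by 0.30 ± 0.07 (adjusted p = 0.00824). On Vegfa 8 of 55 rose, among them Tkt, Arnt2, Plod1, Pgm1 and Pgd (limma adjusted p from 0.00947 to 0.0216), and 2 fell, among them Ugp2 (adjusted p = 0.0165). Of all probe sets 4.8% rose and 4.74% fell with Vegfa. On the cell division score 5 of 56 rose, among them Vldlr, Tfrc, Stc2 and Gys1, and 4 fell, among them Mpc2 and Bpgm (limma adjusted p from 0.000176 to 0.0173). Of all probe sets 3.21% rose and 2.71% fell with that score. On the endothelial score 3 of 56 rose, among them Ak4 (0.33 per SD, limma adjusted p = 0.00172) and Bhlhe40, and 4 fell, among them Stc2, Lox, Slc16a7 and Hilpda. Of all probe sets 3.93% rose and 4% fell with it. On the actin difference 4 of 56 rose and 16 fell, where 11.2% of all probe sets rose and 19.3% fell. The 6 with the smallest p were Mpc1 and Insig2 upward and Plod1, Arnt, Pgm1 and Mif downward.

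Over all other genes, the 5 with the highest moderated t on Pgk1 were Cryl1, Pcdh18, Sgk1, Sox18 and Tnfrsf12a (limma adjusted p from 1.61e-06 to 7.16e-05), and the 5 with the lowest were Bdnf, Rit2, Slc24a2, Ank2 and Itgb5 (adjusted p from 6.92e-06 to 0.000192). Bdnf was also among the 5 lowest on animal number (adjusted p = 1.95e-09). On Vegfa the 5 highest were Elmo3, Sema4a, Pde4dip, Supt3h and Fbxw4 and the 5 lowest Tstd3, Tspan12, Zfp770, Pts and Brd10 (limma adjusted p from 0.00146 to 0.00384).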
